A study of Mus musculus with 3 samples.

Results

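The kinesin and dynein motor genes are the 68 genes, of 22698 in the expression tables, whose mouse symbol names a kinesin heavy chain (*Kif* and *Kifc*), a kinesin light chain (*Klc*), a subunit of cytoplasmic dynein-1 or dynein-2 (*Dync1*, *Dync2* and *Dynl*) or a numbered subunit of dynactin (*Dctn1* to *Dctn6*). They were chosen by symbol and not by level. Earlier results of these data were known when the members and their roles were chosen. RNA-seq was performed on untreated melan-a cells, an immortalized mouse melanocyte line on the C57BL/6J background that was derived from Ink4a-ARF-/- mice. The 3 replicates, labelled 1, 3 and 4, all carried this genotype and all grew in RPMI medium with 10% fetal bovine serum, 200 nM 12-O-tetradecanoylphorbol 13-acetate and 200 pM cholera toxin. Since there was a single condition, the comparisons below are between genes of the same library and between replicates, and the labels do not say whether the replicates were separate cultures. Melan-a is 1 line kept with a phorbol ester and cholera toxin, so its levels are those of a cultured line.

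Motor proteins move cargo along microtubules, which in animal cells usually grow with their plus ends towards the periphery. Most kinesins walk to the plus end and cytoplasmic dynein-1, with its cofactor dynactin, walks to the minus end, and pigment cells are a classic system for both, since melanosomes travel outward on kinesin and inward on dynein before myosin Va holds them in the actin cortex. Other kinesins build the mitotic spindle and separate the daughter cells, and kinesin-2 and dynein-2 carry material along the cilium.

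Values are FPKM, a read count divided by gene length and by library size, which puts genes of different length on a common scale. The gene lengths used are not given, and the replicates differed with the GC content of genes, as described below. Ratios between genes are therefore approximate. From the steps between low values, where each step is 1 read, the scaled library sizes were estimated at 53900000, 47000000 and 66200000 reads in replicates 1, 3 and 4. A gene is called measurable here when it lay above the value of 3 reads in all replicates, which for a gene of 4 kb is 0.014, 0.016 and 0.011 FPKM. All 8 melanocyte markers were at 1 FPKM or more (median of their means 522 FPKM, among them *Tyrp1* at 3144 and *Dct* at 1412). None of 6 keratinocyte, 3 endothelial, 4 immune or 4 testis germ cell markers reached 1 FPKM in all replicates, *Col1a1* was the single fibroblast marker of 6 that did, and the neuronal tubulin *Tubb3* (216 FPKM) and the Schwann cell marker *S100b* (70.7 FPKM) were high while *Snap25* and *Syt1* were listed at 0.

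Of the 68 motor genes, 60 (88.2%) were measurable, against 57.7% of all genes with an annotated length, and 48 (70.6%) were at 1 FPKM or more in every replicate, against 44.1% of all genes. A further 12 were measurable below that level. The remaining 8 were not measurable, of which *Kif5c*, *Kif2b*, *Dynlrb2* and *Dynlt1c* were listed at 0 in all replicates (5.88% of members, against 31.4% of all genes) and *Kif12*, *Kif19a*, *Kif27* and *Dync1i1* lay at a few hundredths of an FPKM or less. The median of the members' mean levels was 5.69 FPKM, and the median of all genes was 0.28 FPKM. Together the members took 1739, 1727 and 1730 FPKM in replicates 1, 3 and 4, or 0.459%, 0.438% and 0.482% of all FPKM. A single gene, the dynein light chain *Dynlrb1*, made up 28.6%, 27.2% and 29.8% of these sums.

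**Figure D1:**
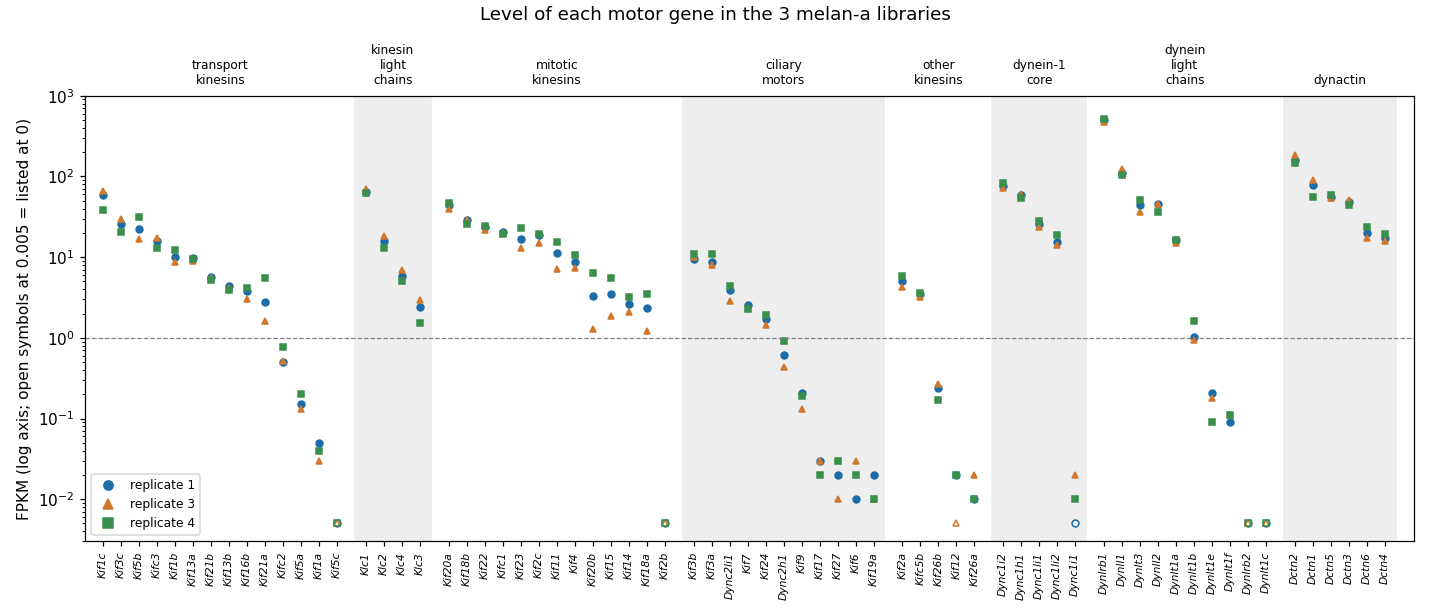
Level of each of the 68 motor genes in the 3 melan-a libraries, on a log axis of FPKM, grouped by role. Each symbol is 1 replicate, open symbols at the bottom are values listed at 0, and the dashed line marks 1 FPKM. Dynactin and the kinesin light chains have every member above the line, while the ciliary motors run from 10.1 FPKM (*Kif3b*) down to 0.0133 FPKM (*Kif19a*).

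Of the 13 mitotic kinesins, 12 were at 1 FPKM or more in every replicate, against 70.6% of all members and 44.1% of all genes. All 6 dynactin and all 4 kinesin light chain genes reached this level too. The 12 mitotic kinesins had means from 2.36 to 43.8 FPKM, and the other, *Kif2b*, was listed at 0. These kinesins act mainly while a cell divides, and many genes of this phase are known to carry the cell cycle genes homology region, a promoter element with the core TTTGAA that the MuvB complexes bind. RefSeq promoter windows (GRCm38.p6, 250 bases before to 50 after the start) were found for 12 of the 13 and for 51 of all 68 members. TTTGAA on either strand, so also TTCAAA, was in the window of 10 of 12 mitotic kinesins (83.3%), of 5 of the other 39 members (12.8%, *Dctn1*, *Kif1a*, *Kif26b*, *Kif27* and *Kifc5b*) and of 20.2% of all 27025 genes with a window. The 8 mitotic kinesins that held it between 100 bases before and 50 after the start are shown here, since they share a short element close to the start that the choice of members did not use. Each run is 30 bases of the strand of the gene, 5′ to 3′, with the element in capitals.
Kif11 (chr19:37376351-37376380, plus strand): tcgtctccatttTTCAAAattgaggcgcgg
Kif15 (chr9:122951050-122951079, plus strand): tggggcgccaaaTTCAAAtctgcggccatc
Kif22 (chr7:127042420-127042449, minus strand): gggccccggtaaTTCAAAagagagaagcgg
Kif18b (chr11:102925104-102925133, minus strand): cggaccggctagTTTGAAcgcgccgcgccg
Kif20b (chr19:34922353-34922382, plus strand): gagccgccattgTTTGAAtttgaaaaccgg
Kif23 (chr9:61946780-61946809, minus strand): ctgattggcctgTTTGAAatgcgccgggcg
Kif4 (chrX:100626072-100626101, plus strand): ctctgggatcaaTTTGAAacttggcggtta
Kifc1 (chr17:33890615-33890644, minus strand): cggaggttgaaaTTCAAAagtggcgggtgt

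Counted in bases from the annotated start, with the start as 0 and positions before it negative, the element began at -19 in *Kif11* and *Kif15* and at -17 in *Kif22*. In the other 5 shown it began just after the start, at 1 in *Kifc1*, 2 in *Kif23*, 3 in *Kif18b*, 7 in *Kif20b* and 19 in *Kif4*. *Kif20b* has a second copy directly after the first, and *Kif15* and *Kif22* have a second match elsewhere in their windows, so the position given is that of the match nearest to the start. In the remaining holders it lay further out, at -103 in *Kif2c* and -228 in *Kif14*, and *Kif18a* and *Kif2b* lacked these letters in this window. Within 100 bases before to 50 after the start the shares were 66.7% of the mitotic kinesins, 10.3% of the other members and 9.23% of all genes. In a list of 11 other proliferation genes, all at 1 FPKM or more, 7 of the 10 with a window held it in that span (70.0%). For comparison, TTTAAA, which cannot overlap TTTGAA or TTCAAA, was in 16.7% of the mitotic windows and 14.9% of all windows. CCAAT on either strand, which overlaps those letters by 1 base at most, was in 66.7% and 41.1%. In the proliferation list, TTTAAA was in 4 of the 10 windows and CCAAT in 9 of the 10. Whether TTTAAA and CCAAT are unrelated to genes of dividing cells was not tested, so their shares are not a neutral background for TTTGAA. A match describes letters and not a bound site, and the letters were chosen after the levels had been seen.

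**Figure D2:**
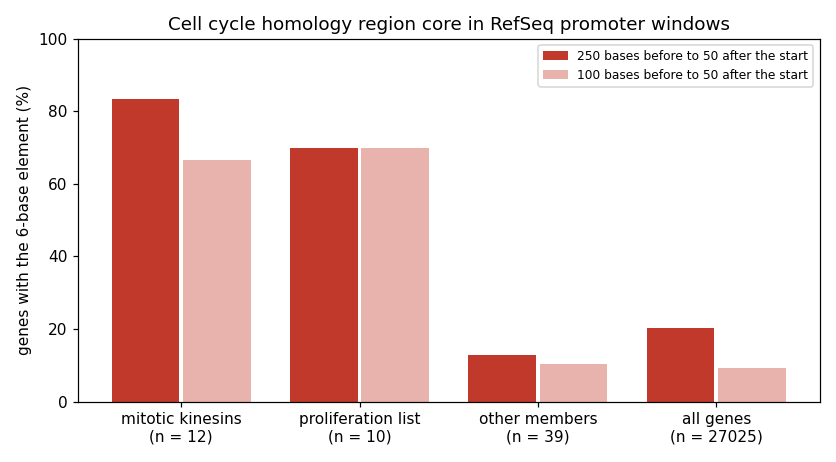
Share of genes (%) whose RefSeq promoter window holds TTTGAA or TTCAAA, for the mitotic kinesins, the proliferation list, the other motor genes and all genes, with n below each pair of bars. Dark bars are for 250 bases before to 50 after the start and light bars for 100 before to 50 after, and the mitotic kinesins stand at 83.3% and 66.7% against 20.2% and 9.23% of all genes.

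*Kif20a* (ENSMUSG00000003779), which carries the chromosomal passenger complex to the midzone for cytokinesis, was the highest mitotic kinesin, at 44.54, 39.60 and 47.23 FPKM in replicates 1, 3 and 4 (mean 43.8 ± 3.9, SD, n = 3). *Kif18b*, a regulator of astral microtubule ends, followed at 28.83, 28.86 and 25.69 FPKM, and *Kif22*, a chromokinesin that pushes chromosome arms from the poles, at 23.34, 21.93 and 24.04 FPKM. The ranges of these 3 genes did not overlap. *Kifc1*, a minus-end kinesin that bundles spindle microtubules, was at 20.53, 19.99 and 19.16 FPKM, although 55.1% of its exonic 32-base stretches also occur elsewhere in the mm9 genome, so reads could be split or lost there. *Kif23*, the kinesin of centralspindlin, and *Kif2c*, a microtubule depolymerase at the centromere, had means of 17.7 ± 5.2 and 17.6 ± 2.4 FPKM, a gap well inside their SDs.

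The plus-end motor *Kif11*, which slides spindle poles apart, was at 11.24, 7.06 and 15.62 FPKM, and *Kif15*, which can act beside it to keep the spindle bipolar, at 3.45, 1.86 and 5.48 FPKM. Both were lowest in replicate 3 and highest in replicate 4, and the ratio between them moved less than either gene, from 2.85 to 3.80. The chromokinesin *Kif4* had a mean of 8.85 ± 1.7 FPKM, *Kif14*, a kinesin of the midbody, 2.62 ± 0.54 and *Kif18a*, which aligns chromosomes, 2.36 ± 1.1. *Kif20b*, the relative of *Kif20a*, was at 3.27, 1.27 and 6.31 FPKM, 7.48 to 31.2 times below *Kif20a* depending on the library. Likewise *Kif18b* exceeded *Kif18a* by 7.32 to 23.5 times. In each of these pairs the order was the same in every library and the size was not.

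Among the 14 transport kinesins, 10 were at 1 FPKM or more, against 70.6% of all members and 44.1% of all genes. Of the 14, 13 were measurable, against 88.2% of all members and 57.7% of all genes with an annotated length. *Kif1c* (ENSMUSG00000020821, chromosome 11 of mm9 from 70514050 to 70545466, plus strand), a kinesin-3 of secretory vesicles, was the highest at 58.68, 66.91 and 37.93 FPKM (mean 54.5 ± 15, SD, n = 3). Next were *Kif3c*, a kinesin-2 heavy chain, at 25.74, 29.82 and 20.35 FPKM and *Kif5b*, the ubiquitous heavy chain of kinesin-1, at 22.28, 16.67 and 31.78 FPKM. *Kif1c* lay above both in every library, whereas *Kif3c* was above *Kif5b* in replicates 1 and 3 and below it in replicate 4. Repeated stretches make up 18.1% of the exonic sequence of *Kif3c* and 24.5% of that of *Kif5b*.

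Conventional kinesin is a tetramer of heavy chains, encoded by *Kif5a*, *Kif5b* and *Kif5c*, and of light chains that bind cargo. In melan-a cells the heavy chain was nearly all *Kif5b*. The neuronal *Kif5a* was at 0.15, 0.13 and 0.20 FPKM, so that *Kif5b* exceeded it by 149, 128 and 159 times, and *Kif5c* was listed at 0, where 3 reads would come to 0.0089 FPKM in the shallowest replicate. All 4 light chain genes were at 1 FPKM or more. *Klc1* led at 64.32, 70.15 and 61.56 FPKM, above *Klc2* at 15.89, 18.44 and 12.88, *Klc4* at 5.78, 6.85 and 5.05, and *Klc3* at 2.44, 2.94 and 1.51. The order of the light chains was the same in every library, and the ratio of *Klc1* to *Klc2* stayed between 3.80 and 4.78 and that of *Klc1* to *Klc4* between 10.2 and 12.2. Light chains summed to 3.94, 5.86 and 2.53 times the heavy chains (geometric mean 3.88, two-sided exact sign-flip permutation test, p = 0.25). The light chain genes had a median GC content of 59.1% and *Kif5b* one of 41.1%, and replicates differed with GC content, as described below. The smallest p that 3 libraries can give in this test is 0.25, so no ratio between genes can pass 0.05 here, and ratios of single genes are given by library and without p.

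The other transport kinesins were lower. *Kifc3*, a minus-end kinesin, had a mean of 15.5 ± 2.2 FPKM, and its relative *Kifc2*, best known from neurons, one of 0.593 ± 0.14, or 17.3 to 33.6 times less. *Kif1b*, a carrier of mitochondria and vesicles, was at 10.3 ± 1.7 FPKM, below *Kif1c* by 3.13 to 7.68 times, and the neuronal *Kif1a* was at 0.0400 ± 0.010. *Kif13a*, which with the adaptor AP-1 positions the endosomes that feed maturing melanosomes, was at 9.37 ± 0.45 FPKM. It stood above *Kif13b* (4.14 ± 0.21) by 2.26, 2.13 and 2.41 times, a narrow range between libraries. *Kif16b*, a motor of early endosomes, was at 3.62 ± 0.57 FPKM. *Kif21b* held 5.48 ± 0.19 FPKM while *Kif21a*, the other member of this family of microtubule growth regulators, was at 2.77, 1.60 and 5.47, so their ratio went from 3.44 in replicate 3 to 0.965 in replicate 4.

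Summed over members, the mitotic kinesins came to 184, 159 and 203 FPKM and the transport kinesins to 160, 163 and 145 FPKM. The ratio of the sums was 1.15, 0.974 and 1.41 (geometric mean 1.17, two-sided exact sign-flip permutation test, p = 0.50), so which sum was higher depended on the library. The median mitotic kinesin was at 7.29 to 15.6 FPKM by library and the median transport kinesin at 4.84 to 5.38 FPKM, higher for the mitotic kinesins in every library (geometric mean of the ratio 2.14). With *Kif3a* and *Kif3b*, grouped here as ciliary, counted as transport kinesins, the geometric mean of the ratio of sums was 1.04. The ratio of medians was not recomputed for that grouping.

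The ciliary motors split between those of any primary cilium and those of motile cilia. *Kif3a* and *Kif3b* form heterotrimeric kinesin-2 with the adaptor *Kifap3* and drive transport towards the tip. *Kif3b* was at 9.60, 9.91 and 10.81 FPKM, *Kif3a* at 8.83, 7.94 and 11.10 and *Kifap3* at 9.33, 8.02 and 10.15. The means were 10.1 ± 0.63, 9.29 ± 1.6 and 9.17 ± 1.1 FPKM. *Kif3b* was above *Kifap3* in every library, while *Kif3a* changed places with each of them in replicate 4. *Kif3c*, which can replace *Kif3b* in the pair with *Kif3a*, exceeded *Kif3a* by 2.92, 3.76 and 1.83 times.

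Dynein-2 returns material to the base of the cilium. Its heavy chain *Dync2h1* was at 0.61, 0.44 and 0.91 FPKM and its light intermediate chain *Dync2li1* at 3.95, 2.88 and 4.34 FPKM. Against *Dync1h1*, the heavy chain of the cytoplasmic motor, *Dync2h1* was 97.4, 137 and 58.8 times lower. The dynein-2 intermediate chains *Wdr34* (6.46 ± 1.3 FPKM) and *Wdr60* (0.530 ± 0.20) also differed. Of 14 genes for dynein-2 subunits and intraflagellar transport trains, 13 were at 1 FPKM or more, against 44.1% of all genes. Their median was 4.83 FPKM, with *Ift46* (22.4) and *Ift20* (20.4) highest. *Kif7*, a Hedgehog regulator at the ciliary tip, was at 2.38 ± 0.14 FPKM, and *Kif24*, which with CP110 keeps the centriole from templating a cilium, at 1.69 ± 0.26.

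Kinesins known mainly from motile cilia and flagella were low, with *Kif9* at 0.177 ± 0.042 FPKM, *Kif6* at 0.01, 0.03 and 0.02, and *Kif27* and *Kif19a* not measurable. *Kif17*, a homodimeric kinesin-2, was at 0.0267 ± 0.0058 FPKM. None of 3 markers of motile ciliated cells reached 1 FPKM (*Foxj1* 0.490 ± 0.16). Of 15 axonemal dynein heavy chains, a list added after the levels had been seen, none reached 1 FPKM and 7 were listed at 0. Over all genes, 44.1% were at 1 FPKM or more and 31.4% were at 0 in every replicate. Of 3 smaller chains named for the axoneme, *Dnalc4* was at 20.9 ± 3.0 FPKM, *Dnalc1* at 1.76 ± 0.37 and *Dnali1* at 0.370 ± 0.085.

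Of the other kinesins, the depolymerase *Kif2a* was at 5.10, 4.25 and 5.81 FPKM, 3.31 to 3.66 times below *Kif2c*. *Kifc5b*, a close copy of *Kifc1*, was at 3.49, 3.22 and 3.55 FPKM, 5.40 to 6.21 times below it, but 51.8% of its own exonic stretches are repeated in the genome, and how such reads were assigned is not given in the sources used here. *Kif26b*, an atypical kinesin, was at 0.24, 0.27 and 0.17 FPKM and *Kif26a* at 0.0133 ± 0.0058. These levels place *Kif26b* well above the value of 3 reads, 0.0082 FPKM in replicate 3, and *Kif26a* next to it, at 0.0093.

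Cytoplasmic dynein-1 is built on a homodimer of heavy chains with intermediate, light intermediate and light chains. Its heavy chain *Dync1h1* (ENSMUSG00000018707, chromosome 12 of mm9 from 111839662 to 111905155, plus strand) was at 59.42, 60.20 and 53.47 FPKM (mean 57.7 ± 3.7, SD, n = 3). Of the intermediate chains, which dock dynactin, *Dync1i2* was at 76.23, 71.09 and 83.72 FPKM and *Dync1i1*, the form prominent in neurons, was not measurable. *Dync1i2* was 1.28, 1.18 and 1.57 times *Dync1h1*, nearer to the heavy chain than any other core subunit. The light intermediate chains, which bind cargo adaptors, were *Dync1li1* at 25.59, 23.80 and 28.07 FPKM and *Dync1li2* at 15.46, 14.28 and 18.95 FPKM. *Dync1li1* exceeded *Dync1li2* in every library, by 1.66, 1.67 and 1.48 times.

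The dynein light chains had the highest sum of the 8 roles, 716, 693 and 727 FPKM, spread very unevenly over its members. *Dynlrb1* (ENSMUSG00000047459, chromosome 2 of mm9 from 155062269 to 155076013, plus strand), the roadblock light chain, was at 497.72, 469.77 and 515.93 FPKM (mean 494 ± 23), rank 78 of all genes and near the melanocyte transcription factor gene *Sox10* (468 ± 86). Its relative *Dynlrb2* was listed at 0, where 3 reads on its short transcript would come to 0.13 FPKM in replicate 3. *Dynll1*, a light chain that also serves as a dimerization hub for many proteins outside dynein, was at 111.07, 125.20 and 104.82 FPKM and *Dynll2*, which is also a light chain of myosin Va, at 45.47, 45.67 and 36.05 FPKM. Their ratio of 2.44, 2.74 and 2.91 kept its order in every library, and 19.0% of the exonic stretches of *Dynll1* are repeated in the genome.

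The Tctex light chains are encoded by *Dynlt3* on chromosome X and by a cluster of near-identical *Dynlt1* copies on mm9 chromosome 17. *Dynlt3* was at 43.78, 35.86 and 51.74 FPKM. In the cluster, *Dynlt1a* was at 16.18, 14.95 and 16.46 FPKM, *Dynlt1b* at 1.03, 0.95 and 1.63, *Dynlt1e* at 0.21, 0.18 and 0.09, and *Dynlt1f* at 0.09, 0.11 and 0.11, while *Dynlt1c* was listed at 0. Their sequences overlap so far that these values are uncertain for each copy. Repeated stretches made up 83.4% of the exonic sequence of *Dynlt1b*, slightly more of that of *Dynlt1a* and 100% of that of *Dynlt1c*, *Dynlt1e* and *Dynlt1f*, so a level near 0 there does not show that a copy was silent.

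Dynactin had all 6 of its named subunit genes at 1 FPKM or more in every library, against 44.1% of all genes. *Dctn2* (ENSMUSG00000025410, chromosome 10 of mm9 from 126703442 to 126718862, plus strand), dynamitin of the shoulder, was the highest at 158.83, 182.46 and 147.04 FPKM, and *Dctn1*, the large projecting arm that binds microtubules and the dynein intermediate chain, was second by mean at 78.91, 90.65 and 55.01 FPKM. *Dctn2* was 2.01, 2.01 and 2.67 times *Dctn1*. *Dctn3*, the remaining shoulder subunit, was at 47.84, 51.52 and 44.70 FPKM. The pointed end complex, which helps to select cargo, was uneven, with *Dctn5* at 55.07, 53.46 and 59.53 FPKM, *Dctn6* at 19.94, 17.33 and 23.46 and *Dctn4* at 17.37, 15.69 and 19.51. *Dctn5* exceeded *Dctn3* by only 1.15, 1.04 and 1.33 times, and *Dctn6* exceeded *Dctn4* by 1.15, 1.10 and 1.20 times.

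The filament and regulator genes that do not carry a *Dctn* symbol were all at 1 FPKM or more, 10 of 10. The share of all genes at that level was 44.1%, and the median of these 10 was 48.1 FPKM. The capping subunit *Capzb* was at 199 ± 13 FPKM and the filament subunits *Actr1a* and *Actr1b* at 113 ± 20 and 58.3 ± 11. Among regulators of dynein, *Nudc* was at 56.3 ± 3.6, *Nde1* at 50.8 ± 5.7, *Ndel1* at 21.6 ± 0.61 and the lissencephaly gene *Pafah1b1* at 20.2 ± 3.5 FPKM. The subunits of 1 complex therefore spanned from *Capza1* (13.4 FPKM) to *Capzb* (199 FPKM) at the level of RNA.

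**Figure D3:**
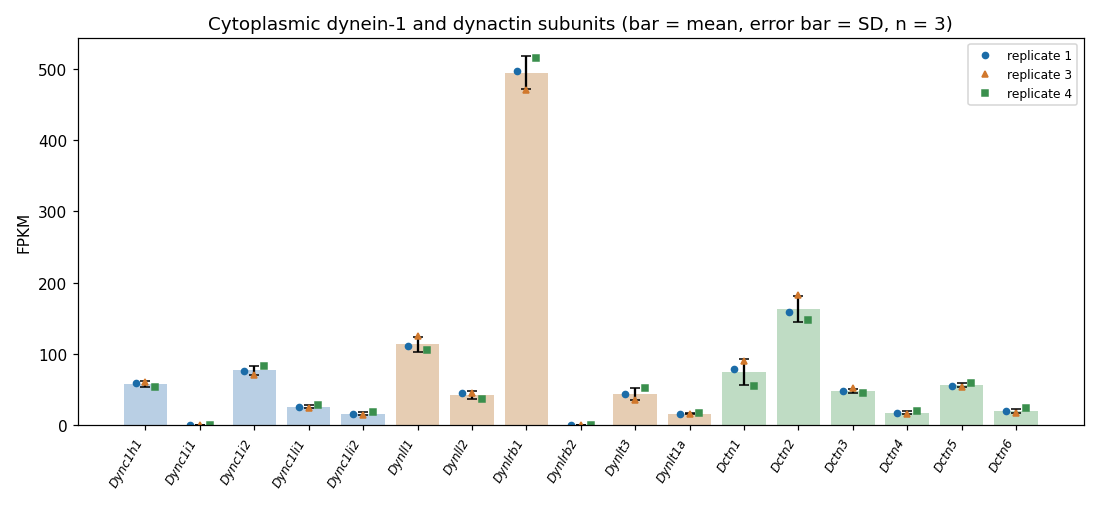
Level in FPKM of cytoplasmic dynein-1 core subunits (blue), dynein light chains (orange) and dynactin subunits (green). Bars are means, error bars are the SD over 3 replicates and symbols are single replicates. *Dynlrb1* at 494 FPKM stands above every other subunit, and *Dync1i1* and *Dynlrb2* sit at the axis.

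To see which orders between related genes held, 32 pairs were compared within each library, a choice made after the levels had been seen. In 28 of the 32 the same gene was higher in all 3 libraries, and in 26 of 30 without *Dynlt3* with *Dynlt1a* and *Kifc1* with *Kifc5b*, where over 50% of a gene's exonic stretches are repeated. The 4 that changed were *Kif3c* with *Kif5b*, *Kif3b* with *Kif3a*, *Kif21b* with *Kif21a* and *Dctn1* with *Dctn5*. In each of them replicate 4 stood against the other replicates, so that without replicate 4 all 32 pairs kept a single order. The first gene of each pair had the higher GC content in its annotated exons, 51.7%, 49.1%, 56.3% and 58.5% in this order. The second genes were at 41.1%, 44.6%, 47.1% and 46.8%. Replicates differed with GC content, as described below, and what made these orders change was not tested.

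**Figure D4:**
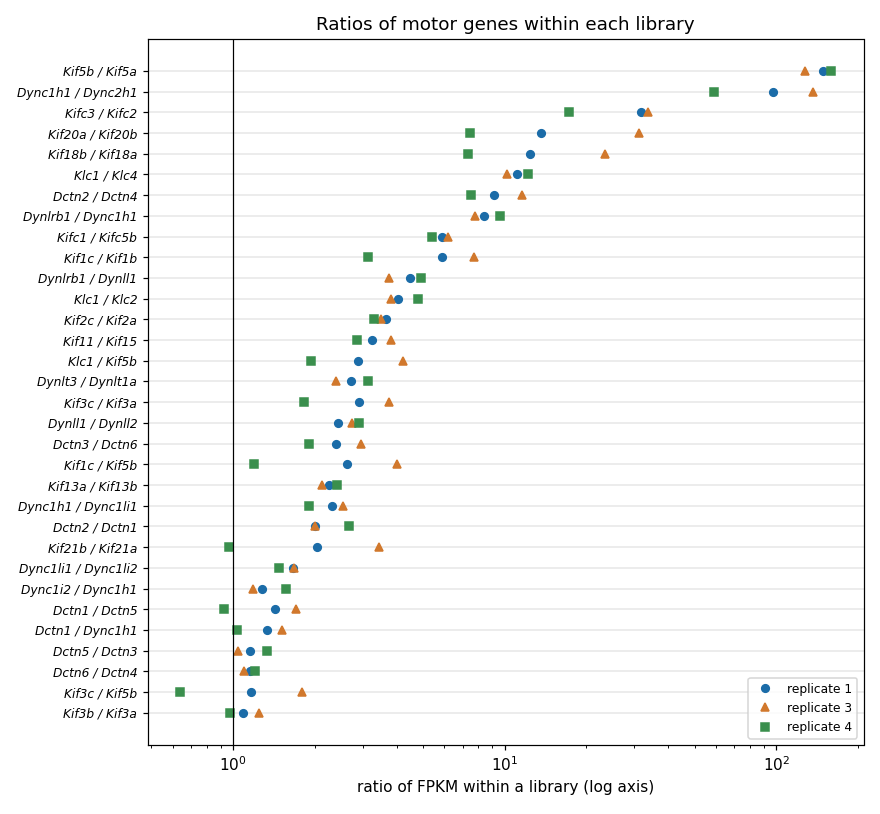
Ratio of the levels of 2 related motor genes within each library, on a log axis, for 32 pairs. Each symbol is 1 replicate and the vertical line marks equal levels. The ratios of *Kif20a* to *Kif20b*, *Kif21b* to *Kif21a*, *Kif1c* to *Kif5b* and *Kif18b* to *Kif18a* spread widest, by 4.17, 3.57, 3.36 and 3.21 times between the highest and the lowest library.

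The replicates differed from each other in a way that followed base composition. Over the 48 members at 1 FPKM or more in every replicate, the log2 ratio of replicate 3 to replicate 4 rose with the GC content of the annotated exons (Spearman's rho 0.851, Pearson's r 0.790), and over 10007 genes at that level the rho was 0.779. These are descriptions across genes of the same libraries, which are not independent. The other pairs of replicates showed it too, with a rho over members of -0.801 for replicate 1 to 3 and 0.859 for replicate 1 to 4. All 4 kinesin light chain genes, with a median GC content of 59.1%, were higher in replicate 3 than in replicate 4, and 10 of 12 mitotic kinesins, with a median of 46.8%, were lower.

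The coefficient of variation over the 3 replicates had a median of 14.6% over members and 11.4% over all genes at that level. It was highest for *Kif20b* (70.2%), *Kif21a* (60.5%), *Kif15* (50.4%), *Kif18a* (48.4%) and *Kif11* (37.9%). These were also the 5 members over 2-fold apart between replicates 3 and 4, and each was lower in replicate 3, by 2.31 on the log2 scale for *Kif20b*, whose exons have 39.4% GC. For genes of the same GC content within 1 point the median log2 ratio was -0.62 at *Kif20b* and -0.18 at *Kif21a*, where the genes themselves were at -2.31 and -1.77. GC content thus went with a part of their spread. Once the median of genes of like GC was subtracted, the SD of the log2 ratio over members went from 0.65 to 0.43.

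All 12 mitotic kinesins at 1 FPKM or more were still below the median of genes of like GC content in replicate 3 relative to replicate 4, with a median difference of -0.38 on the log2 scale. The same held for 9 of 11 proliferation genes (median difference -0.14, with *Mki67* at 24.89, 14.08 and 37.40 FPKM) and for all 4 kinesin partners found, among which *Cenpe*, the kinetochore kinesin, was at 4.12, 2.03 and 7.15 FPKM, *Tpx2* at 47.6 ± 9.3 and *Prc1* at 52.7 ± 12. The 5 ciliary motors at that level were also all below (median difference -0.37), as were 8 of 10 transport kinesins (-0.21). Over all roles, 36 of 48 members were below. The median difference was -0.18 for dynein-2 and intraflagellar transport genes, -0.16 for cargo adaptors and -0.15 for other kinesins. It was -0.10 for dynein-1 core subunits, -0.03 for dynactin and 0.00 for the kinesin light chains. The median was above 0 for the dynein light chains (0.10, 2 of 5 below) and for the dynactin filament and dynein regulator genes (0.04, 3 of 10 below). What this remainder came from was not tested.

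**Figure D5:**
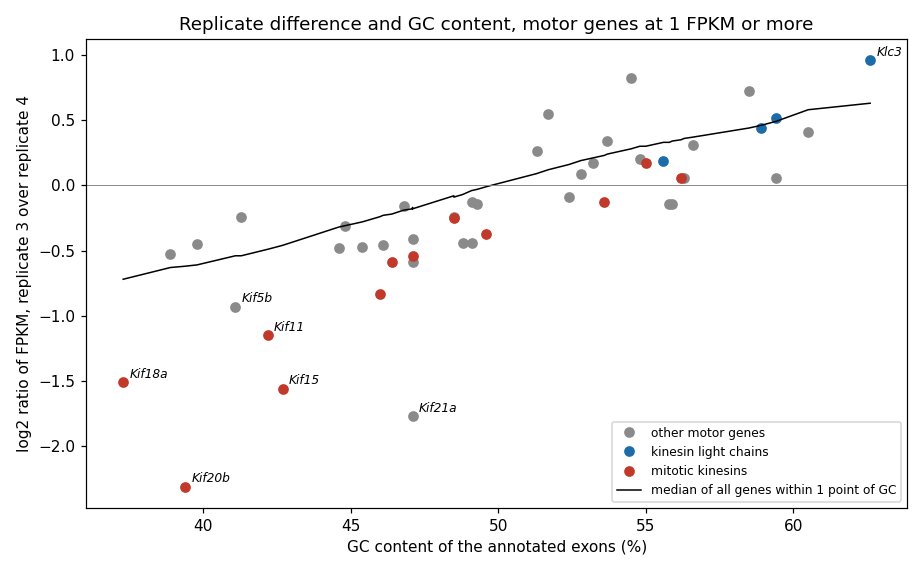
Log2 ratio of FPKM in replicate 3 over replicate 4 against the GC content (%) of the annotated exons, for the 48 motor genes at 1 FPKM or more in every replicate. Red points are mitotic kinesins, blue points kinesin light chains, grey points the other motor genes, and the line is the median of all genes within 1 point of GC. Points rise with GC content, and *Kif20b* (-2.31) and *Kif21a* (-1.77) lie furthest below the line.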

How the data were processed

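Members were found by symbol in the 3 tables of FPKM values that the authors deposited, 1 per replicate with 22698 Ensembl genes. The values carry 2 decimals and had been TMM-scaled. Per the submitters' notes and the methods of the study, reads from stranded mRNA libraries were trimmed by 10 bases at the 5′ end, aligned to mm9 with STAR 2.3.0e, cleared of rRNA reads and counted on Ensembl release 67 with htseq-count 0.5.3p3. How counts became FPKM, with which gene lengths and with which setting for reads that map to several places is not given in the sources used here.

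Symbols, exon lengths and GC content were taken from Ensembl release 65 on mm9, which holds 22324 of the 22698 genes. Depth was estimated from 133, 149 and 82 genes with a single transcript in replicates 1, 3 and 4, whose values lay on average 0.051, 0.053 and 0.063 reads from a whole number, and covers counting error only. Repeated stretches are exonic 32-mers found again on the assembled chromosomes, on either strand. Ratios were taken within a library and tested with an exact sign-flip permutation test, two-sided. Named genes are the 3 highest of each role, all kinesin-1, dynein and dynactin subunits, the 5 members with the highest coefficient of variation at 1 FPKM or more, and the partner and marker lists. Other members are given by their means. Members, roles and lists were chosen with earlier results of these data known, and the gene pairs, the promoter letters and the list of axonemal heavy chains after the values had been seen. The estimate of depth and the recovery of planted ratios between levels were tested on simulated data, and the sign-flip test was not. Protein sequences were not used here. Python 3.11.15, numpy 2.4.6, pandas 2.3.3, scipy 1.17.1 and matplotlib 3.10.9 were used.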

Additional observations from a re-analysis of the deposited data

How the results depend on the processing

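No paired analysis was possible because the series has 1 group. Of the recomputed summary values, 67 stayed within the spread between replicates (counts within 1.5 times) and 13 moved. A threshold of 10 FPKM left 27 members in place of 48, and the share of all genes at that threshold is not given here. Medians in place of sums raised the ratio of mitotic to transport kinesins to 2.14. Rescaling each library to a common sum over all genes changed only the unit of the medians, to 1.75 for ciliary motors, 138 for dynactin, 68.7 for dynein-1 core subunits, 22.7 for dynein light chains, 28.5 for kinesin light chains, 30.4 for mitotic, 0.597 for other and 12.8 for transport kinesins. Leaving out members at 0 put the median at 29.1 for dynein light chains and 5.48 for transport kinesins, and TTTAAA in place of TTTGAA was in 2 mitotic windows. With a replicate left out, 60 to 62 members were measurable, 48 or 49 were at 1 FPKM, the mitotic to transport ratio was 1.06 to 1.27, and 28 to 32 of the 32 pairs kept their order. The rho with GC content was 0.799 over members at 10 FPKM. Of the recomputed ratios of single pairs, 151 stayed and 9 moved, all with a pseudocount, such as *Kif5b* to *Kif5a* at 20.5 with 1 FPKM added. Levels under the value of 3 reads, and those of the *Dynlt1* copies, cannot be read.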

Other observations

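Cargo adaptors, which join motors to their freight, were measured alongside the motors. Of 20 listed genes 18 were found, and 16 of these were at 1 FPKM or more in every replicate. The share of all genes at that level was 44.1%, and the median of the 18 was 10.8 FPKM. The small GTPases that recruit kinesin to lysosomes were the highest, *Arl8a* at 125.99, 139.71 and 113.51 FPKM and *Arl8b* at 56.09, 52.43 and 61.32 FPKM, and their partner *Plekhm2*, which links them to the kinesin light chains, was at 17.4 ± 2.1 FPKM. The scaffold *Mapk8ip1* (40.5 ± 9.2 FPKM) and the kinesin-1 adaptor *Fez1* (33.3 ± 2.2 FPKM) came next among those that bind kinesin-1. *Kidins220*, a membrane scaffold that binds kinesin-1, was at 24.0 ± 4.9 FPKM.

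The dynein adaptors differed within their families. *Bicd2* was at 19.79, 19.56 and 18.75 FPKM and *Bicd1* at 7.19, 4.95 and 9.50 FPKM, with no overlap between the genes. Of the Hook proteins, *Hook3* was at 5.42 ± 1.8 FPKM, *Hook2* at 1.65 ± 0.16 and *Hook1* at 0.0100 ± 0.010, not above the value of 3 reads. The mitochondrial adaptors *Trak2* and *Trak1*, which bind both kinds of motor, were at 15.36, 15.27 and 16.16 FPKM and at 11.92, 12.53 and 8.43 FPKM.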
